A study of Mus musculus with 9 samples.

Results

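The cytosolic ribosomal protein genes encode the protein shell of the ribosome. They were taken by a rule on name and annotation: protein-coding genes called Rpl or Rps with a number, and Rplp0, Rplp1, Rplp2 and Rpsa, without the Rps6k kinases. This set was chosen with earlier results of these data known. The rule took 87 of the 56748 genes in the table, of which 21970 are protein-coding. The 87 comprised 31 proteins of the small (40S) subunit, 46 of the large (60S) subunit and 10 others. The others were the paralogs Rpl10l, Rpl22l1, Rpl36al, Rpl39l, Rpl3l, Rpl7l1, Rps27l and Rps27rt, the gene Rps23rg1, and Rps19bp1, which encodes a protein that binds Rps19 and is no part of the ribosome.

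Each ribosome carries a single copy of nearly every ribosomal protein, and the genes are transcribed together at a high rate. Many of their mRNAs begin with a C and a run of pyrimidines, the terminal oligopyrimidine (TOP) tract, through which mTORC1 signaling controls their translation. Hematopoietic stem cells (HSCs) are known for a low rate of protein synthesis, and loss of single ribosomal proteins causes Diamond-Blackfan anemia, a failure of red cell production.

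RNA-seq was performed on HSCs of female C57BL/6 mice, sorted from bone marrow as Lin-Sca1+c-Kit+CD48-CD150+ cells. The 3 groups, each with 3 biological replicates (n = 3), were HSCs of young mice aged 6 to 10 weeks (yHSCs) and 2 fractions of pre-aged HSCs (paHSCs) of mice aged 14 to 16 months, with low (Selp-low) or high (Selp-high) surface P-selectin. The labels name no transgene and no treatment for any group. The RNA was amplified from an ultra-low input, and the values deposited were whole-number read counts per gene, from 24866975 to 35375310 per library.

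Libraries differed in the markers of other blood cells, some of them by group and some by library. Immunoglobulin genes took 41.0% of the counts of Selp-low replicate 2, 3.90% of Selp-high replicate 2, 3.05% of Selp-low replicate 1, 1.42% of Selp-high replicate 3 and at most 0.389% elsewhere. The summed level of 12 B and plasma cell markers was 648 to 1381 CPM (counts scaled by the size of the library) in yHSCs, 944 to 462250 in Selp-low paHSCs and 2754 to 20958 in Selp-high paHSCs, with all 12 detected in every library but Selp-high replicate 3, where 1 was at 0. The sum of 12 T and NK cell markers was 68.4 to 96.2 CPM, 634 to 1488 CPM and 153 to 162 CPM in the same order, with up to 3 of them at 0 in a library. The sum of 12 neutrophil markers was 13065 to 65138, 593 to 214480 and 1886 to 42361 CPM, none at 0. The 12 HSC markers were detected in every library, with sums of 1484 to 3188, 1326 to 1938 and 3061 to 4153 CPM.

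The T and NK cell sum did not overlap between any 2 groups, and the HSC sum of Selp-low paHSCs lay wholly below that of Selp-high paHSCs. The sum of 12 megakaryocyte and platelet markers was 168 to 251 CPM in yHSCs, 232 to 2294 CPM in Selp-low and 1605 to 8383 CPM in Selp-high paHSCs, with 1 at 0 in each young library. All 11 of its genes with a test had a higher level in the Selp-high fraction than in yHSCs (median log2 fold change 4.13) and than in the Selp-low fraction (2.29). Monocyte and macrophage markers summed to 2429 to 10931, 785 to 27892 and 1788 to 7741 CPM, and erythroid markers to 2033 to 6001, 2476 to 5593 and 2036 to 3951 CPM. The part of these other cells in the differences below was not tested. In bulk samples such as these, fewer cells of a type and less RNA per cell cannot be told apart.

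The starts of 10 genes are shown first, because the TOP tract lies there and because they include the genes with the largest differences below. Each line gives the 15 bases before and the 15 bases from the annotated start, 5′ to 3′ on the gene's strand, from RefSeq on GRCm38.p6, an older build than that of the count table. Capitals mark a C followed by at least 7 pyrimidines, in that window.
Rps27 (chr3:90213634-90213663, minus strand): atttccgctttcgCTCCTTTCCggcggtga
Rps27rt (chr9:114982725-114982754, minus strand): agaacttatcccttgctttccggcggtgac
Rps27l (chr9:66946071-66946100, plus strand): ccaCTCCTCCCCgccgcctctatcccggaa
Rpl35 (chr2:39005117-39005146, minus strand): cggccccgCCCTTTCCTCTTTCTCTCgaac
Rpl38 (chr11:114668565-114668594, plus strand): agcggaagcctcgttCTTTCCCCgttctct
Rpl37a (chr1:72711245-72711274, plus strand): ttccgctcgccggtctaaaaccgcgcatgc
Rps25 (chr9:44407699-44407728, plus strand): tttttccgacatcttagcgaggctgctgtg
Rps6 (chr4:86857353-86857382, minus strand): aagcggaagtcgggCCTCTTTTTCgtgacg
Rpl15 (chr14:18270972-18271001, minus strand): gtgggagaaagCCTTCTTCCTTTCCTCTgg
Rps10 (chr17:27635230-27635259, minus strand): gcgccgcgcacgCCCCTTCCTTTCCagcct

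RefSeq held a start for 67 of the 87 genes, among them 57 of the 40S and 60S genes. A tract of this kind lay in the window of 24 of those 57 (42.1%), against 10.8% of 27025 gene symbols. Its longest runs among the genes shown, of 18 and 17 bases, were in Rpl35 and Rpl15. In the 250 bases before and 50 after the start, the ETS motif CCGGAAG, on either strand, was in 24 of 57 (42.1%, against 9.93% of all symbols), and CGCGAG preceded by TCT in 7 (12.3% against 0.762%). AAGATGG was in 9 (15.8% against 7.28%) and TATAAA in 6 (10.5% against 15.7%). These matches describe letters in a window and not binding.

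Rps27 is a small-subunit protein, and Rps27rt and Rps27l are its close copies. The coding sequences of Rps27 and Rps27rt were identical over all 255 bases, stop codon included, so that a read inside them cannot be told apart by sequence. Rps27l matched Rps27 at 194 of 255 bases (76.1%) and differed at 61. The first 90 bases are given from the GENCODE transcripts of mouse, since they show how far the counts of the 3 genes can be told apart. Capitals in the second line mark the 24 bases that differ from Rps27.
Rps27 and Rps27rt: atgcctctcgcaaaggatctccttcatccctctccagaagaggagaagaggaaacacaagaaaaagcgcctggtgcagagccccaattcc
Rps27l: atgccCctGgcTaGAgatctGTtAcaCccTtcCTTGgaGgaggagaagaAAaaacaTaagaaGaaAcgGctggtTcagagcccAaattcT

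Ribosomal protein genes were among the more abundant transcripts, yet they took only a few percent of each library. Their share of all counts was 1.58%, 1.98% and 1.90% in yHSCs (mean 1.82% ± 0.210, SD, n = 3). It was 2.54%, 1.68% and 2.11% in Selp-low paHSCs (2.11% ± 0.429) and 2.203%, 2.83% and 2.09% in Selp-high paHSCs (2.38% ± 0.395). Selp-low replicate 2 was the only aged library below the highest young one. With counting error alone, the exact binomial 95% interval of each share was narrow, for example 1.58% to 1.59% in yHSC replicate 1, and the reads carry no stated molecular identifiers.

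The Selp-low share depended on the denominator. Without immunoglobulin genes and the markers of other blood cells, the share was 1.76% to 2.03% in yHSCs (1.92% ± 0.140), 2.62% to 3.18% in Selp-low paHSCs (2.82% ± 0.306) and 2.25% to 3.01% in Selp-high paHSCs (2.51% ± 0.433). On that denominator both aged fractions lay wholly above yHSCs, and they overlapped each other. With 3 libraries against 3, an exact permutation test cannot give a two-sided p below 0.1, so none was run on these shares. Of protein-coding counts alone, the means were 1.87% ± 0.208, 2.59% ± 0.398 and 2.48% ± 0.469.

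**Figure D1:**
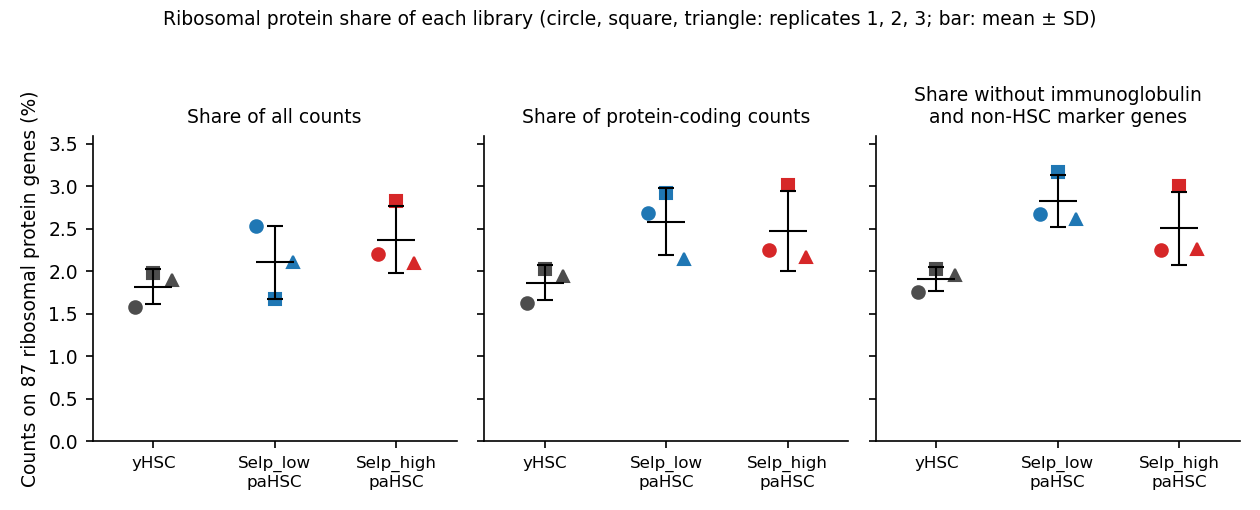
Share of counts on the 87 ribosomal protein genes (y axis, percent) in each of the 9 libraries, over all counts, over protein-coding counts, and without immunoglobulin and non-HSC marker genes. Points are libraries and bars the mean ± SD. Selp-low replicate 2 moves from 1.68% of all counts to 3.18% in the right panel, where both aged fractions lie above the 3 yHSC libraries.

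The balance of the subunits moved less. Counts on 60S genes per count on 40S genes were 1.38, 1.38 and 1.40 in yHSCs and 1.29, 1.28 and 1.29 in Selp-low paHSCs. In Selp-high paHSCs they were 1.51, 1.27 and 1.37, which spanned both other groups. Selp-low paHSCs lay below yHSCs in all libraries.

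Within the 40S and 60S genes, levels per length were broad. The mean over the 9 libraries, as counts scaled by length and depth (FPKM), ranged from 0.880 to 672 with a median of 116.7, and 74 of 77 genes lay above 10. Rps3a1, a 40S protein near the exit of the mRNA channel, was highest at 672 FPKM, and the stalk protein Rplp0, at 542 FPKM, was also among the highest. The lowest were Rpl24 at 0.880, Rps10 at 1.104 and Rpl13a at 3.16. These 3 values sit far below their peers, and their mRNAs also shared sequence with other genes, as described at the end. The spans of Rpl13a and Rps10 in the count table also overlapped another protein-coding gene on the same strand (Gm45713 and Gm49804). So did that of the paralog Rpl36al (Gm49383), whereas that of Rpl24 did not. The part of shared sequence and of overlapping genes in these low values was not tested.

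Over all 84 genes with a mean of at least 10 counts, the SD of log2 CPM across libraries ranged from 0.20 to 1.55 with a median of 0.44. Rpl10a, Rpl4, Rpl3, Rpl22 and Rpl6, all of the 60S subunit, varied least. Rpl3l, Rpl37a, Rps27, Rpl36al and Rps27rt varied most. Rpl3l, the striated-muscle form of Rpl3, was near the floor: it had 26, 97 and 29 counts in yHSCs, 9, 6 and 10 in Selp-low paHSCs and 0, 22 and 67 in Selp-high paHSCs. The counts of Selp-high paHSCs overlapped with those of both other groups.

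Selp-low paHSCs were compared with yHSCs to ask how the aged HSCs with little P-selectin differ from young ones. Ribosomal protein genes were higher in Selp-low paHSCs in 81 of the 84 tested, with a median log2 fold change of 0.85 and quartiles of 0.66 and 1.103. The median of all 20437 genes tested was 0.08. The median for the 31 genes of the 40S subunit was 0.92, for the 46 of the 60S subunit 0.85 and for the 7 others tested 0.70. No single gene passed the adjusted test.

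By edgeR's quasi-likelihood test with Benjamini-Hochberg adjustment, 0 ribosomal protein genes were called in Selp-low paHSCs over yHSCs (lowest adjusted p 0.332), as were 0.0% of all genes. At an unadjusted p under 0.05, 63 of 84 were higher and 0 lower, against 7.11% of all genes higher. That count was 37 with Selp-low replicate 2 omitted, against 3.33% of all genes. With library totals alone, without TMM factors, it was 0 higher and 1 lower, against 1.84% of all genes higher, and the median was 0.24 beside -0.47 for all genes. Among the 63 were 25 of the 40S genes and 35 of the 60S genes. In 70 of the 87 the Selp-low libraries lay wholly above yHSCs, against 9.59% of all genes tested, and in 1 (Rpl3l) wholly below.

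Other tools gave other counts. DESeq2 called 1 gene, Rps25 (adjusted p = 0.0445), against 1.79% of all genes called higher. DESeq2 restricted to the genes that pass edgeR's filter, a fit chosen after the data were seen, called 50, against 4.7% of all genes. The voom fit of limma with quality weights called 20, against 1.75%. With 1 library left out in turn, the DESeq2 count was 19 if Selp-low replicate 3 was omitted (4.76% of all genes called higher), 14 if Selp-low replicate 1 was (2.39%), 11 if yHSC replicate 1 was (7.9%) and 0 for each of the other 3 libraries. With the replicate block DESeq2 called 2, Rps27 and Rpl37a, against 1.48% of all genes. With a library left out, the fold changes moved less than the calls. Their edgeR median stayed between 0.71 and 0.92, at 0.74 with Selp-low replicate 2 omitted and 0.77 with Selp-low replicate 3 omitted. It was 0.85 with factors set without immunoglobulin and marker genes but 0.24 with library totals alone. With the length trends described below removed, it was 0.12 (mRNA length) and 0.39 (coding length).

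**Figure D2:**
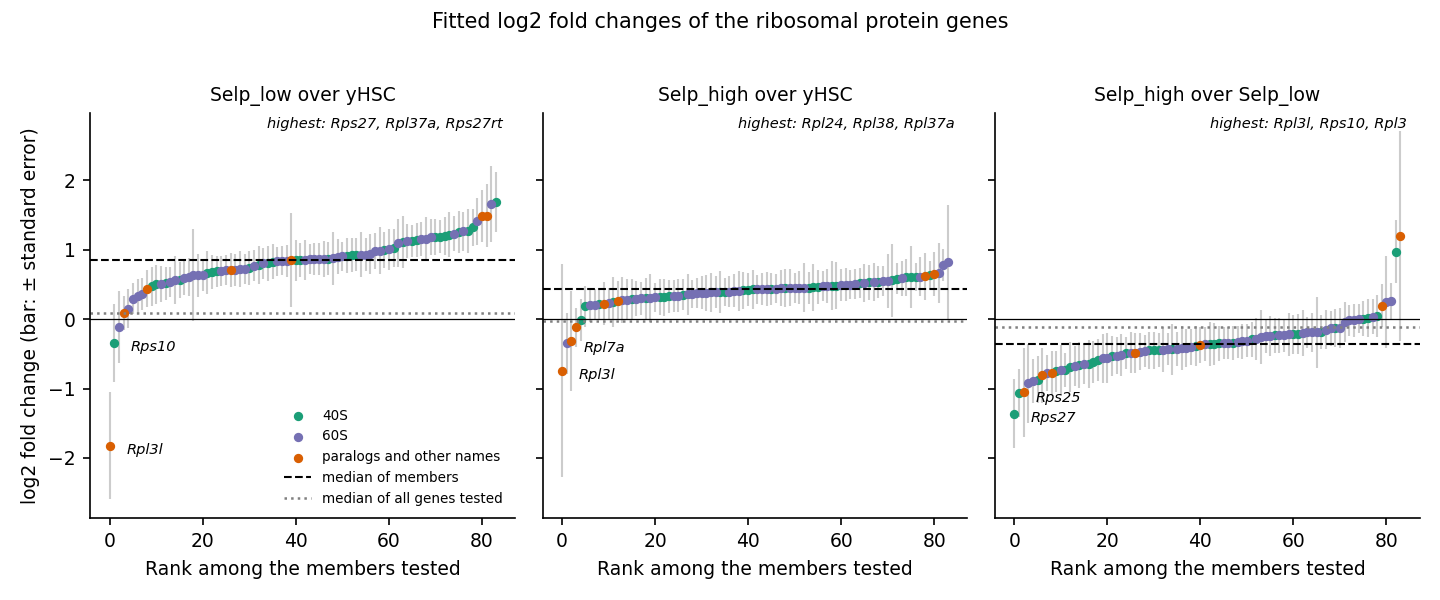
Fitted log2 fold change (y axis, bars ± standard error) of the 84 ribosomal protein genes tested in each of 3 comparisons, ranked along the x axis and colored by class. Dashed and dotted lines mark the medians of these genes and of all genes tested. The members' median was 0.85 in Selp-low paHSCs over yHSCs, 0.43 in Selp-high paHSCs over yHSCs and -0.36 in Selp-high over Selp-low paHSCs.

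Rps27 had the largest positive fitted difference. Its level was 80.3, 114.5 and 106.2 CPM in yHSCs and 286.9, 476.0 and 161.3 CPM in Selp-low paHSCs. All 3 Selp-low libraries lay above the young ones, by a log2 fold change of 1.69 (standard error 0.43, edgeR adjusted p = 0.332). Rps27rt, the copy with the same coding sequence, was at 12.7, 14.9 and 25.6 CPM in yHSCs and 44.1, 71.8 and 26.6 CPM in Selp-low paHSCs (log2 fold change 1.49). The lowest Selp-low library exceeded the highest young one by little.

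Rps27l, a paralog known as a p53 target, was at 103.3, 55.3 and 66.1 CPM in yHSCs and 139.9, 258.4 and 216.7 CPM in Selp-low paHSCs (log2 fold change 1.48, standard error 0.37). The groups did not overlap. Its count per count of Rps27 ran from 0.483 to 1.57 over the 9 libraries and overlapped among the 3 groups. Rps27rt per Rps27 ran from 0.130 to 0.295.

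Among the other small-subunit genes, Rps25, a protein used by viral internal ribosome entry sites, was the most even. It was at 229.7, 204.1 and 220.6 CPM in yHSCs and at 469.4, 653.7 and 460.2 CPM in Selp-low paHSCs (log2 fold change 1.32, standard error 0.27, edgeR adjusted p = 0.332). The aged libraries were at least 2 times the young ones. Rps19, the protein most often mutated in Diamond-Blackfan anemia, was at 382.8, 392.6 and 412.4 CPM and at 813.1, 1224.4 and 721.6 CPM (log2 fold change 1.27, standard error 0.31). Selp-low replicate 2 was highest, and no library overlapped. Rps6, the substrate of S6 kinase, had a smaller difference of 0.57 (standard error 0.26), with 468.7 to 642.9 CPM in yHSCs and 719.6 to 894.0 CPM in Selp-low paHSCs.

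Among the large-subunit genes, Rpl37a was at 85.1, 172.7 and 195.7 CPM in yHSCs and at 197.2, 748.7 and 423.8 CPM in Selp-low paHSCs (log2 fold change 1.66, standard error 0.54). Its lowest aged library barely passed its highest young one, and the fold change was 1.04 without Selp-low replicate 2. Rpl35 was at 75.9, 56.4 and 59.3 CPM and at 133.7, 232.9 and 127.0 CPM (1.41, standard error 0.34). Rpl38, a protein known for its part in the translation of Hox mRNAs, was at 52.2, 57.2 and 45.9 CPM and at 86.2, 151.9 and 123.4 CPM (1.26, standard error 0.28). In both genes every Selp-low library was above every young one.

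**Figure D3:**
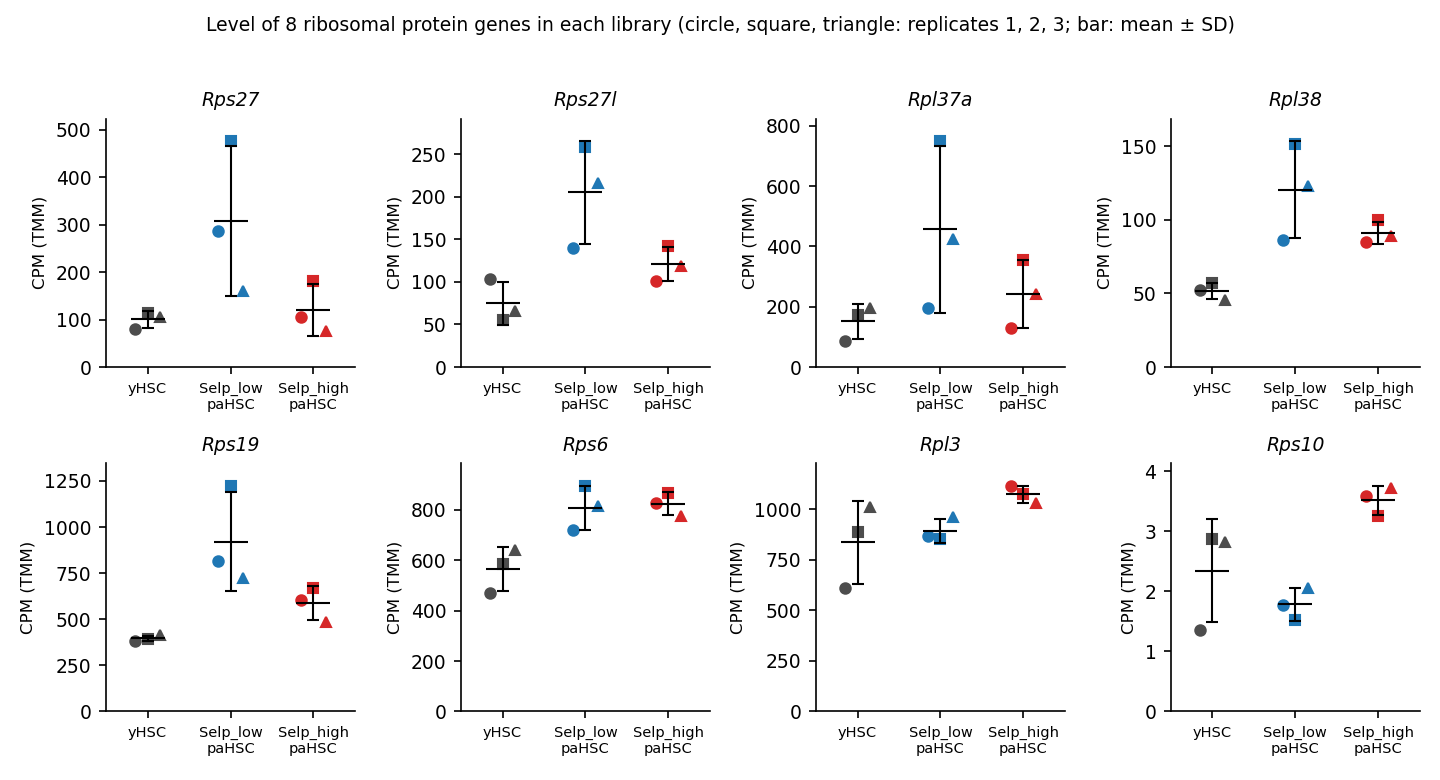
Level (y axis, CPM after TMM scaling, from 0) of 8 ribosomal protein genes in the 9 libraries, with circle, square and triangle for replicates 1, 2 and 3 and bars for the mean ± SD. Rps27, Rps27l, Rpl37a, Rpl38 and Rps19 are highest in Selp-low paHSCs, Rpl3 and Rps10 are highest in Selp-high paHSCs, and Rps6 lies above yHSCs in both aged fractions.

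The ribosomal stalk, which recruits translation factors, is built of Rplp0, Rplp1, Rplp2 and Rpl12. All 4 were higher in Selp-low paHSCs at an unadjusted p under 0.05, with a median log2 fold change of 1.01. Rplp1 was at 90.4, 118.3 and 131.9 CPM in yHSCs and at 219.7, 296.5 and 228.0 CPM in Selp-low paHSCs (1.18, standard error 0.26), and Rplp0 differed by 0.72. Rpl5 and Rpl11, which bind 5S rRNA and, when free, the p53 regulator Mdm2, differed by 0.84 and 0.71. Rpl5 was even within groups, at 323.9 to 361.9 CPM in yHSCs and 565.9 to 625.7 CPM in Selp-low paHSCs. Of 9 genes mutated in Diamond-Blackfan anemia, 7 were higher at an unadjusted p under 0.05, with a median of 0.71, and 0 passed edgeR's adjusted test. The stalk and anemia counts stand beside 63 of 84 for all members and 7.11% of all genes higher at that p. Neither list is thereby set apart from the members as a whole.

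A few genes ran against the rest. The fitted log2 differences were -0.34 for Rps10 (standard error 0.56), -0.11 for Rpl7a (standard error 0.52) and -1.82 for Rpl3l (standard error 0.78). Rpl7a was at 26.2, 66.6 and 59.7 CPM in yHSCs and at 27.7, 28.0 and 81.9 CPM in Selp-low paHSCs. The groups of Rpl7a and Rps10 overlapped. Rpl22, an RNA-binding protein with roles in lymphocyte development, differed by 0.36 (standard error 0.23) and also overlapped.

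Selp-high paHSCs were compared with yHSCs to ask the same of aged HSCs with much P-selectin. The median difference had the same direction and was smaller. The level was above that of yHSCs for 79 of 84 genes, and the median log2 difference was 0.43 (quartiles 0.32 and 0.50), against -0.03 over 20017 genes. The 40S and 60S medians were both 0.43 and that of the 7 others 0.22. The young libraries are the same as above, so the 2 comparisons with yHSCs are not independent.

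EdgeR's quasi-likelihood test called 0 of the 84 after Benjamini-Hochberg adjustment (lowest adjusted p 0.398), against 0.165% of all genes. At an unadjusted p under 0.05, 9 were higher and 0 lower, against 4.48% of all genes higher. That count was 0 if yHSC replicate 3 was omitted (2.54% of all genes), 1 if yHSC replicate 2 was (2.68%) and 3 if Selp-high replicate 2 was (3.57%), and 5 with library totals alone (4.16%). DESeq2 also called 0, against 2.08% of all genes called higher, and 1 (Rps27l) without yHSC replicate 1, against 2.8%. In 40 of the 87 the groups did not overlap, all with Selp-high paHSCs higher, against 8.53% of all genes tested.

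Rpl38 had the lowest p of the group. It was at 84.8, 99.7 and 88.8 CPM in Selp-high paHSCs against 45.9 to 57.2 CPM in yHSCs, a log2 fold change of 0.78 (standard error 0.24, edgeR adjusted p = 0.398). Every aged library was above every young one. Rps6 was at 829.6, 866.8 and 776.3 CPM, also without overlap with yHSCs (0.52, standard error 0.22). Rpl5 was at 526.4, 558.4 and 459.5 CPM (0.55, standard error 0.21).

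Some of the other large fitted values were less secure. The value for Rpl24 was 0.82 with a standard error of 0.82, on 16 to 59 counts per library. Rpl37a and Rps27l differed by 0.66 and 0.65 and overlapped with yHSCs, and Rpl37a was at 0.26 without Selp-high replicate 2. Rps13 (-0.02), Rpl22l1 (-0.12), Rpl36al (-0.32), Rpl7a (-0.35) and Rpl3l (-0.74) had values below 0, and each overlapped.

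Between the aged fractions, Selp-high was compared with Selp-low paHSCs. Of 84 ribosomal protein genes, 74 were lower in the Selp-high fraction, and the median log2 difference was -0.36, against -0.11 over 20370 genes. The medians were -0.43 for the 40S genes, -0.33 for the 60S genes and -0.48 for the others. EdgeR's adjusted test called 0 (lowest adjusted p 0.338), against 0.0% of all genes. DESeq2 called 0 as well, against 1.66% of all genes called lower. It called 1 gene lower, Rps27, without Selp-low replicate 3 (3.55% of all genes) and 1, Rps25, without Selp-high replicate 2 (8.21%). At an unadjusted edgeR p under 0.05, 8 were lower and 0 higher, against 5.67% of all genes lower. That count was 0 if Selp-low replicate 2 (2.17% of all genes) or Selp-high replicate 3 was omitted (4.03%), 1 if Selp-high replicate 1 was (4.99%) and 15 if Selp-high replicate 2 was (10.4%).

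The labels do not say that libraries with equal numbers share mice or a batch. Deviations from the group means correlated at 0.178, 0.276 and 0.303 between equal numbers of the 2 fractions. Between Selp-high replicate 1 and yHSC replicate 2 the value was 0.449, so such values do not establish a pairing. A replicate block was still fitted beside this comparison, and its counts rest on pairs that the labels do not give. With the block, edgeR called 0 ribosomal protein genes, and 23 were lower at an unadjusted p under 0.05, against 7.94% of all genes. DESeq2 with the block called 9, against 6.27% of all genes called lower. In 23 of the 87 genes Selp-high paHSCs lay wholly below Selp-low, against 10.7% of all genes tested. The direction depended on scaling: with library totals alone, without TMM factors, the median of these genes was 0.16 and that of all genes 0.37, and 0 of the members were lower at an unadjusted p under 0.05, against 1.97% of all genes.

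Rps25 showed the clearest separation, at 169.8, 340.5 and 247.8 CPM in Selp-high paHSCs against 460.2 to 653.7 CPM in Selp-low (log2 fold change -1.07, standard error 0.35, edgeR adjusted p = 0.338). Rpl35 was at 95.4, 100.9 and 71.6 CPM against 127.0 to 232.9 CPM (-0.89, standard error 0.32). In both, every Selp-high library was below every Selp-low one. Rps27 was at 105.2, 181.3 and 75.9 CPM (-1.36, standard error 0.50), and its highest Selp-high library passed the lowest Selp-low library. Rpl37a (-0.92) and Rpl36al (-1.06) overlapped too. Without Selp-low replicate 2 the value was -0.52 for Rpl35, -0.88 for Rps27 and -0.32 for Rpl37a.

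Only the Selp-high libraries of Rpl3 and Rps10 lay wholly above the Selp-low ones. Rpl3, which lies by the peptidyl transferase center, was at 1117, 1076 and 1031 CPM against 868, 855 and 963 CPM, a log2 fold change of 0.26 (standard error 0.27). Rps10 was at 3.59, 3.25 and 3.72 CPM against 1.77, 1.52 and 2.06 CPM (0.97, standard error 0.46). Both differences missed the adjusted edgeR test. Rpl24 (0.25) and Rpl7l1 (0.19) overlapped, and Rpl3l (1.19, standard error 1.51) rested on Selp-high replicate 3, without which it was -0.38.

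Ribosomal proteins that the name rule leaves out were measured as well. Fau, made as a fusion with a ubiquitin-like protein, was at 77.7, 80.1 and 84.8 CPM in yHSCs, 136, 225 and 185 CPM in Selp-low and 80.9, 108 and 94.8 CPM in Selp-high paHSCs. It was above yHSCs by 1.22 in Selp-low paHSCs and below Selp-low by 0.95 in Selp-high paHSCs. Rack1, the scaffold on the 40S head, was at 313 to 350, 491 to 591 and 459 to 527 CPM in the same order. Neither gene passed the adjusted test by edgeR.

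Other lists of the translation and protein turnover machinery were tested with the same fit, and 0 of their genes were called by edgeR. In Selp-low paHSCs over yHSCs, 39 of 77 mitochondrial ribosomal proteins were higher at an unadjusted p under 0.05 and 0 lower, with a median log2 fold change of 0.66. Of 31 proteasome subunits 13 were higher and 0 lower at that p, with a median of 0.63 and with Psmb3 at 1.46. These counts stand beside 7.11% of all genes tested that were higher at that p. Among protein-coding genes outside the members with an mRNA of at most 500 bases, 38.8% were. The part of mRNA length in the counts of these lists was not tested. Elongation factors had a median of 0.57, with 10 of 12 tested higher, and initiation factors of 0.25. The abundant elongation factors Eef1a1 and Eef2 had no higher mean. Eef1a1 was at a mean of 2009 CPM in yHSCs and 1997 CPM in Selp-low paHSCs, and Eef2 at 623 and 562 CPM, with overlap. Ribosome biogenesis factors had one of -0.13, although 2 of its members, Nop10 (1.25) and Nhp2 (1.22), stood high. The medians of the first 4 lists were above the 0.08 of all genes, and that of the biogenesis factors was below it.

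In Selp-high paHSCs over yHSCs the median was 0.24 for both mitochondrial ribosomal proteins and proteasome subunits. In Selp-high over Selp-low paHSCs it was -0.37 and -0.32, beside -0.36 for the cytosolic ribosomal proteins. Ribosome biogenesis factors had medians of -0.01 and 0.14 in the same comparisons.

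Ribosomal protein mRNAs are short, and the fold changes of all genes varied with mRNA length. The main mRNA of the 87 genes, in GENCODE, had a median of 729 bases, against 2285 for protein-coding genes at large, and 66 were at most 1000 bases long. In Selp-low paHSCs over yHSCs, other protein-coding genes of at most 500 bases had a median log2 fold change of 0.89, falling to 0.81, 0.59, 0.39 and 0.04 at up to 750, 1000, 1500 and 2500 bases and to -0.15 at up to 5000, with -0.01 above 5000. The ribosomal protein medians in the first 4 of these ranges were 1.13, 0.88, 0.71 and 0.63. Each of these 4 was above that of other genes of like length, by less than above genes at large. In the next 2 ranges the gap to other genes was wider. The 5 members above 1500 and up to 2500 bases had a median of 0.84, against 0.04. The 1 member above 2500 and up to 5000 bases was at 0.83, against -0.15. Of the other genes of at most 500 bases, 38.8% were higher at an unadjusted p under 0.05.

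Fold changes varied with length in the other comparisons as well, in the opposite direction between the aged fractions. In Selp-high over Selp-low paHSCs, other genes of at most 500 bases had a median of -0.71 and those above 2500 and up to 5000 bases one of 0.15, with -0.12 above 5000, and the ribosomal protein genes of at most 500 bases had one of -0.51. In Selp-high paHSCs over yHSCs the other genes were at 0.20 at most 500 bases, 0.22 at up to 750 and -0.21 above 5000, and the shortest ribosomal protein genes had a median of 0.47. Across 84 ribosomal protein genes, Spearman's rho of the fold change with mRNA length was -0.51 for Selp-low paHSCs over yHSCs, 0.51 for Selp-high over Selp-low and -0.17 for Selp-high over yHSCs. These are descriptions across genes of the same libraries.

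**Figure D4:**
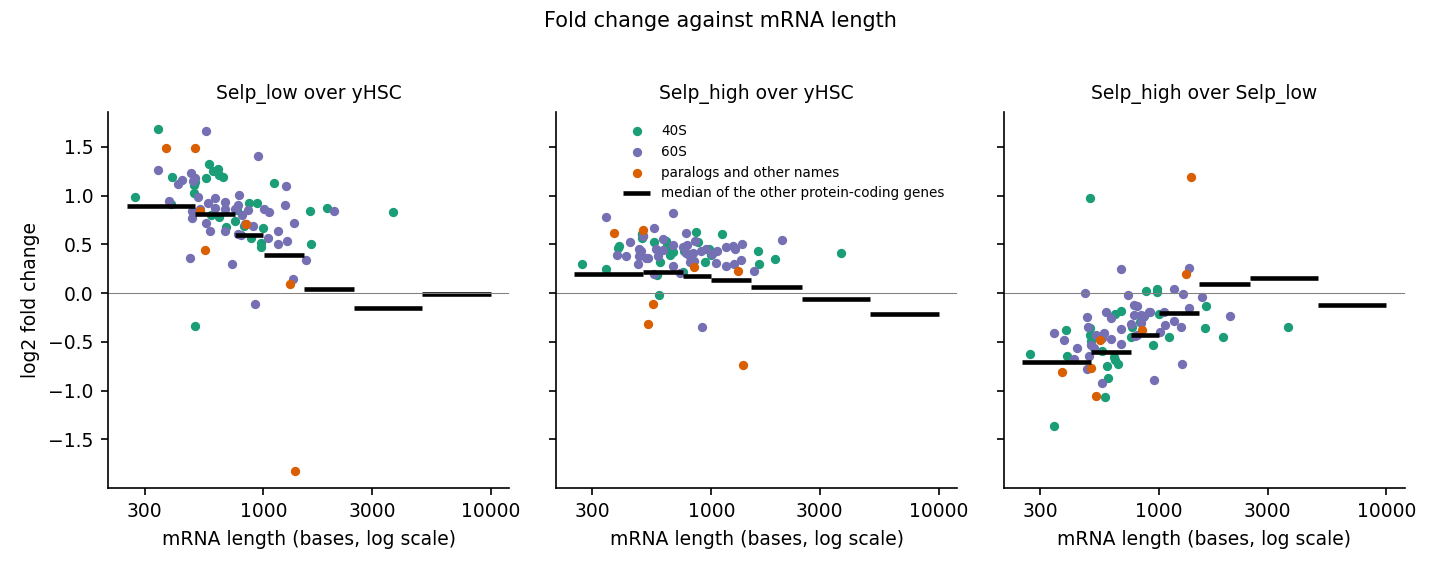
Fitted log2 fold change (y axis) of ribosomal protein genes against the length of their main mRNA (x axis, bases, log scale) in 3 comparisons. Black bars are medians of the other protein-coding genes in ranges of length, and in Selp-low paHSCs over yHSCs they pass from 0.89 in the shortest range to -0.15 above 2500 and up to 5000 bases.

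When the trend with mRNA length was removed from each library, an alternative chosen after the data were seen, the ribosomal protein medians were 0.12 in Selp-low paHSCs over yHSCs, 0.19 in Selp-high paHSCs over yHSCs and 0.06 in Selp-high over Selp-low paHSCs. In the first of these, 7 of 85 genes were then higher at an unadjusted p under 0.05, against 5.23% of all genes fitted. They were Rps20, Rpl35, Rpl5, Rps3, Rps16, Rps27l and Rpl12, and Rpl3l was lower. With the trend in coding length removed instead, the 3 medians were 0.39, 0.26 and -0.15, and 18 of 85 genes were higher in the first, against 5.49%. The annotated mRNAs of Rps20 (3706 bases), Rpl5 (2045) and Rps3 (1908) are long for this family, and their values depended on the length used. Rps20 was 0.83 without removal, 1.04 with the mRNA length trend removed and 0.21 with the coding length trend removed, and Rpl5 was 0.84, 0.88 and 0.71. Rps3 was 0.87, 0.87 and 0.66. The part of RNA length in the differences between groups was not tested beyond these values.

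Genes with and without a match to the tract in the window around the annotated start had like medians. Such a match does not sort the mRNAs into TOP and other ones. In Rps27l it lies wholly before the start, and the Rps25 window opens within a run of pyrimidines cut by its edge. The medians therefore compare windows and not TOP mRNAs with others. In Selp-low paHSCs over yHSCs the median log2 fold change was 0.85 for the 24 genes with a tract in the window and 0.85 for the 33 without. It was 0.42 and 0.44 in Selp-high paHSCs over yHSCs, and -0.35 and -0.35 in Selp-high over Selp-low paHSCs. Rps27, Rpl35 and Rpl38 hold a match in the windows above, and Rpl37a and Rps25, with differences of like size, hold none there.

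Ribosomal protein genes share sequence with many pseudogenes, and how reads that map to several places were counted is not given in the sources used here. A median of 41.4% of the 100-base windows of a member's main mRNA also occurred in a transcript of another gene. Of the 87, 10 shared none and 38 shared over 50%, with Rps27 highest at 98.4%. The table held 314 named ribosomal protein pseudogenes.

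Rps10 was the clearest case. Of the counts on Rps10 and its named pseudogenes, 90.8% lay on the pseudogenes. The sum of gene and pseudogenes was 13.01, 23.9 and 23.8 CPM in yHSCs, 24.9, 41.3 and 43.4 CPM in Selp-low and 24.7, 41.7 and 34.3 CPM in Selp-high paHSCs. On this sum both aged fractions lay above yHSCs, whereas Rps10 alone was lowest in Selp-low paHSCs by its mean. The pseudogene part was 56.8% for Rpl17, 45.1% for Rpl23a, 42.1% for Rpl21 and 25.7% for Rps12. The levels of these genes, and of Rpl24, which had 273 counts in all 9 libraries, are therefore uncertain.

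**Figure D5:**
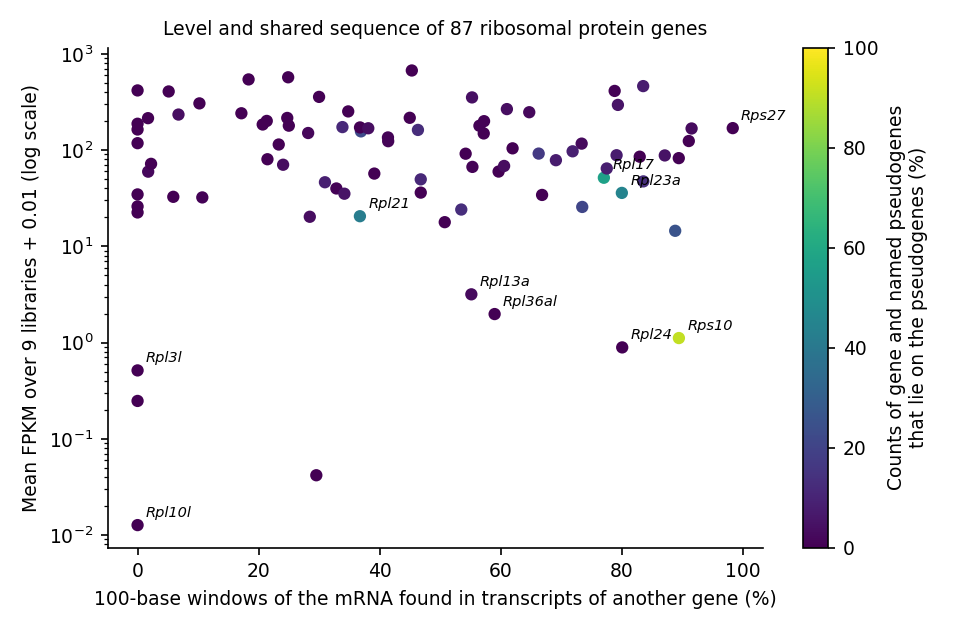
Mean level (y axis, FPKM + 0.01, log scale) of the 87 genes against the percentage of 100-base windows of their mRNA found in transcripts of another gene (x axis). Color gives the percentage of the counts of a gene and its named pseudogenes that lie on the pseudogenes, which was 90.8% for Rps10. Most genes lie above 10 FPKM at any shared percentage.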

How the data were processed

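The authors trimmed reads with fastp, aligned them with HISAT2 2.2.1 (mm39 per the submitters' processing notes) and deposited raw featureCounts 2.0.6 counts. The strand and multimapping settings were not given in the sources used here. In all, the table held 0 unused per-sample columns. Counts were analysed in R 4.3.3 with edgeR 4.0.16 (TMM, filterByExpr, quasi-likelihood, each pair of groups alone, Benjamini-Hochberg, adjusted p of at most 0.05), limma 3.58.1 and DESeq2 1.42.0, and tested on simulated data. CPM used TMM factors, from 0.544 (Selp-low replicate 2) to 1.22; FPKM used the table's gene lengths. Members and lists were chosen with earlier results of these data known. Named genes were fixed by rule: extremes of FPKM, fold change and variability, paralogs, the stalk, 5S and anemia lists, Rps6, Rpl22 and Rpl38, and the genes that follow the members most closely. Genes named for a sequence feature, for sequence sharing or after length removal were chosen after their values were seen. Residual correlations of equal replicate numbers were 0.178, 0.276 and 0.303 for Selp-high with Selp-low paHSCs and -0.417 to 0.0917 with yHSCs. Unlike numbers reached 0.449, and the labels state no pairing. Alternatives covered scaling, filters, tool, block, length and each library left out. Some genes that the rule names are not reported here.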

Additional observations from a re-analysis of the deposited data

Results flagged for a closer look

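Outside the members, the named ribosomal protein pseudogenes carried a signal that also differed between groups. Their summed level was 508, 535 and 601 CPM in yHSCs, 789.0, 1142 and 1009 CPM in the Selp-low fraction and 641.6, 842 and 694 CPM in the Selp-high fraction. By their lowest values, the Selp-low libraries (789.0 CPM) and the Selp-high libraries (641.6 CPM) were both above the highest young one. Pseudogene counts were 3.19% to 3.804% of the member counts in every library. The part of shared reads in this was not tested.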

How the results depend on the processing

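With 3 libraries a group, 1092 fold changes of named genes under 40 settings kept their direction in 1057 cases. Many of these genes were named for the largest fold changes, so that count does not describe the members as a whole. In Selp-high over Selp-low paHSCs, 10 of 84 members were higher in the main fit. That number was 62 with library totals only and 49 with the mRNA length trend removed. Calls depended on the tool. In Selp-low paHSCs over yHSCs, 0 ribosomal protein genes by edgeR became 1 by DESeq2 (0 to 19 with a library left out: 11 without yHSC replicate 1, 14 without Selp-low replicate 1, where 7.9% and 2.39% of all genes were called higher), 2 with the replicate block (1.48%), 20 by voom, 50 by DESeq2 after edgeR's filter and 63 at an unadjusted p under 0.05; edgeR with the replicate block called 0. In Selp-high paHSCs over yHSCs, the counts were 9 unadjusted and 0 to 1 by DESeq2 with a library left out. In Selp-high over Selp-low paHSCs they were 8 unadjusted, 9 by DESeq2 with the replicate block and 0 to 1 with a library left out. Median fold changes moved with scaling and length. For Selp-low paHSCs over yHSCs the median was 0.24 with library totals only, 0.12 with the mRNA length trend removed, 0.17 with that and the replicate block, and 0.39 with the coding length trend removed. For Selp-high paHSCs over yHSCs it was 0.19 and, with the block, 0.22. For Selp-high over Selp-low paHSCs it was 0.16 with library totals only, 0.061 with the mRNA length trend removed with or without the block, and -0.15 with the coding length trend removed. The Selp-low share was 2.59% of protein-coding counts and 2.82% without immunoglobulin and marker genes. The cause was not tested.

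No reversed value had passed an adjusted test. In Selp-low paHSCs over yHSCs, Rps6 was -0.042 with library totals only, -0.045 with the mRNA length trend removed and -0.013 with the block added; Rpl22 was -0.23, -0.61, -0.53 and, with coding length, -0.22. In Selp-high paHSCs over yHSCs, Rps13 was 0.001 without a filter and 0.009 in 1 fit of 9 libraries. In Selp-high over Selp-low paHSCs, Rpl3l was -0.077 with the replicate block and -0.20 by DESeq2 with it, and Rpl24 was -0.052 by voom. With each library left out, edgeR gave ranges of -0.87 to 0.14 for Rpl7a (Selp-low over yHSCs), -0.67 to 0.35 for Rpl36al, -0.286 to 0.023 for Rpl22l1 and -0.29 to 0.16 for Rps13 (Selp-high over yHSCs), and -0.38 to 1.78 for Rpl3l, -0.02 to 0.43 for Rpl24 and -0.14 to 0.36 for Rpl7l1 (Selp-high over Selp-low). DESeq2 gave -0.84 to 0.12 for Rpl7a (0.039 without yHSC replicate 2, 0.108 without Selp-low replicate 2), -0.69 to 0.34 for Rpl36al, -0.30 to 0.14 for Rps13 (0.053 without Selp-high replicate 3), -0.42 to 1.795 for Rpl3l, -0.032 to 0.46 for Rpl24 and -0.14 to 0.39 for Rpl7l1.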

Other observations

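The genes outside the members whose log2 CPM followed the members' mean most closely over the 9 libraries, among 9779 genes, were the ribosomal protein pseudogenes Gm10275 (Pearson r = 0.984) and Rps7-ps3 (r = 0.973) and the immunoglobulin gene Igkv5-48 (r = 0.970). Igkv5-48 was at 0 to 0.492 CPM in yHSCs, 22.8 to 508 CPM in Selp-low and 0.439 to 66.3 CPM in Selp-high paHSCs. The points share libraries and scaling factors.

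Regulators of ribosomal protein synthesis were less uniform than the proteins. Of 20 tested TOP and mTORC1 regulators, 10 were higher and 10 lower in Selp-low paHSCs over yHSCs (median log2 fold change 0.01). Eef2k, the kinase that inactivates elongation factor Eef2, differed by -1.69 (standard error 0.38, edgeR adjusted p = 0.332). Mycn differed by 2.36 between the Selp-high and the Selp-low fraction (standard error 0.56, edgeR adjusted p = 0.338). The p53 targets and regulators Cdkn1a, Mdm2, Trp53 and Mdm4 differed by -0.43, -0.16, -0.19 and 0.39 in Selp-low paHSCs over yHSCs, and none passed the adjusted test.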
